A study of Sus scrofa with 20 samples.

Results

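The genes described here were grouped as transcription factors and exocytosis machinery of the chromaffin cells of the adrenal medulla. They are the transcription factors PHOX2A, GATA3, HAND2 and INSM1, the vesicle protein SYP, the membrane fusion proteins SNAP25 and SYT1, the stathmin STMN2 and the G protein regulator RGS4. They were chosen by gene symbol in the annotation table of the array, and each gene is represented by its transcript probe set of highest mean value. Of the 9 genes, 8 were measured, among 13588 named genes with a transcript probe set. No probe set carried the symbol SYP in the annotation used here, so SYP was not analysed.

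Adrenal glands came from 20 German Landrace pigs, labelled as adult, of which 10 were high reactive (HR) and 10 low reactive (LR) in coping behavior. According to the methods, both groups were picked as extremes of restraint behaviour in early life and by haplotype at a locus linked to coping. No treatment is named in the labels. Each gland was measured on 1 Affymetrix Porcine Snowball array, and sex, litter and array batch are not given in the sources used here.

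Chromaffin cells arise from the neural crest, as sympathetic neurons do, and a shared set of transcription factors switches on the enzymes that make catecholamines. They store adrenaline and noradrenaline in dense core vesicles. When calcium enters the cell, SNARE proteins draw the vesicle and cell membranes together, and synaptotagmins act as the calcium sensors that set off fusion.

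All values are RMA log2 values of a probe set, whose level depends on its probes as well as on the transcript, so that levels are compared between animals and not between genes. The 69 background control probe sets had means from 1.31 to 8.14 with a median SD over animals of 0.15, and whether a member was above background could not be judged from its level. The glands contained both parts of the organ by their markers. The mean of 11 cortex markers lay between 11.20 and 11.94 in HR glands and between 11.64 and 11.86 in LR glands. The mean of 11 chromaffin markers lay between 9.34 and 10.18 in HR glands and between 8.94 and 10.20 in LR glands. In such whole tissue, fewer cells of a type and less RNA per cell cannot be told apart.

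The array of 1 HR pig, HR2835, stood apart. Its mean correlation with the other arrays was 0.938, against 0.977 to 0.983 for each of the other 19. This gland had the lowest mean of the 20 for the cortex list (11.20) and also for the neuron, Schwann cell, leukocyte, capsule, smooth muscle, endothelial and adipocyte lists. Its mean for the chromaffin list (9.63) stood 11th from the lowest, but DDC of that list stood 2nd and PNMT 3rd. GATA3 also stood 3rd from the lowest. Among lists of other exocytosis genes, its mean was the lowest for SNAREs and for vesicle membrane proteins. For regulators of SNAREs it was the highest of the 20, and for further synaptotagmins it stood 19th from the lowest. Its mean for 15 further transcription factors of chromaffin cells stood 16th from the lowest. Among the members, HR2835 had the lowest PHOX2A and INSM1 and the highest SYT1 of all 20 glands. SNAP25 stood 19th from the lowest, RGS4 18th, STMN2 13th and HAND2 7th. Many results are therefore also given without HR2835.

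HR and LR overlapped for each of the 4 transcription factors. PHOX2A, a homeodomain factor that binds the promoters of catecholamine enzymes (chr9:6808144-6831636 on Sscrofa11.1, RefSeq), had a lowest, median and highest log2 value of 5.91, 6.44 and 6.76 in HR glands, against 6.06, 6.42 and 6.71 in LR glands. The low HR value was that of HR2835, and the next lowest of the other 19 glands was an LR gland at 6.06. GATA3, a zinc finger factor needed for catecholamine synthesis in the mouse sympathetic lineage (chr10:63367684-63397977), had 7.04, 7.56 and 8.29 in HR glands, against 6.89, 7.51 and 8.12 in LR glands. The LR range lay slightly below the HR range at both ends.

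HAND2, a basic helix-loop-helix factor of the same lineage (chr14:16460089-16462979), had a lowest, median and highest value of 7.02, 7.32 and 7.71 in HR glands, against 6.70, 7.22 and 7.70 in LR glands. The 3 lowest glands were LR animals, while the highest values of both groups were nearly the same. INSM1, a zinc finger repressor of neuroendocrine cells (chr17:28379529-28382554), had 7.15, 7.87 and 8.52 in HR glands, against 7.26, 7.77 and 8.15 in LR glands. Both the lowest gland, HR2835, and the highest were HR animals.

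SNAP25, SYT1 and RGS4 spread more widely over the glands than the transcription factors, with SDs of 0.63, 0.59 and 0.91, while STMN2 (0.37) varied about as much as GATA3 (0.38). SNAP25, a SNARE of the cell membrane (chr17:19096115-19227580), had a lowest, median and highest value of 6.68, 7.10 and 8.42 in HR glands, against 6.40, 7.34 and 8.53 in LR glands. Each group held glands near both ends of the range. SYT1, a calcium sensor of vesicle fusion (chr5:101871313-102394310), had 6.22, 6.57 and 8.43 in HR glands, against 5.92, 6.82 and 7.56 in LR glands. The value of 8.43 was that of HR2835, and the other 19 glands reached no higher than 7.56.

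STMN2, a stathmin of neurons that binds tubulin (chr4:56952968-57006744), had 9.70, 10.19 and 10.56 in HR glands, against 9.47, 10.10 and 10.91 in LR glands. The LR values enclosed all HR values. RGS4, which speeds up the shut-off of G protein signals (chr4:87383336-87390478), varied most of the 8 members, while PHOX2A varied least, with an SD of 0.22 over all 20 glands. Its lowest, median and highest values were 6.16, 6.55 and 8.01 in HR glands, against 5.47, 7.03 and 9.49 in LR glands. The highest value, 9.49, and the lowest, 5.47, both came from LR animals, LR2579 and LR2790.

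**Figure D1:**
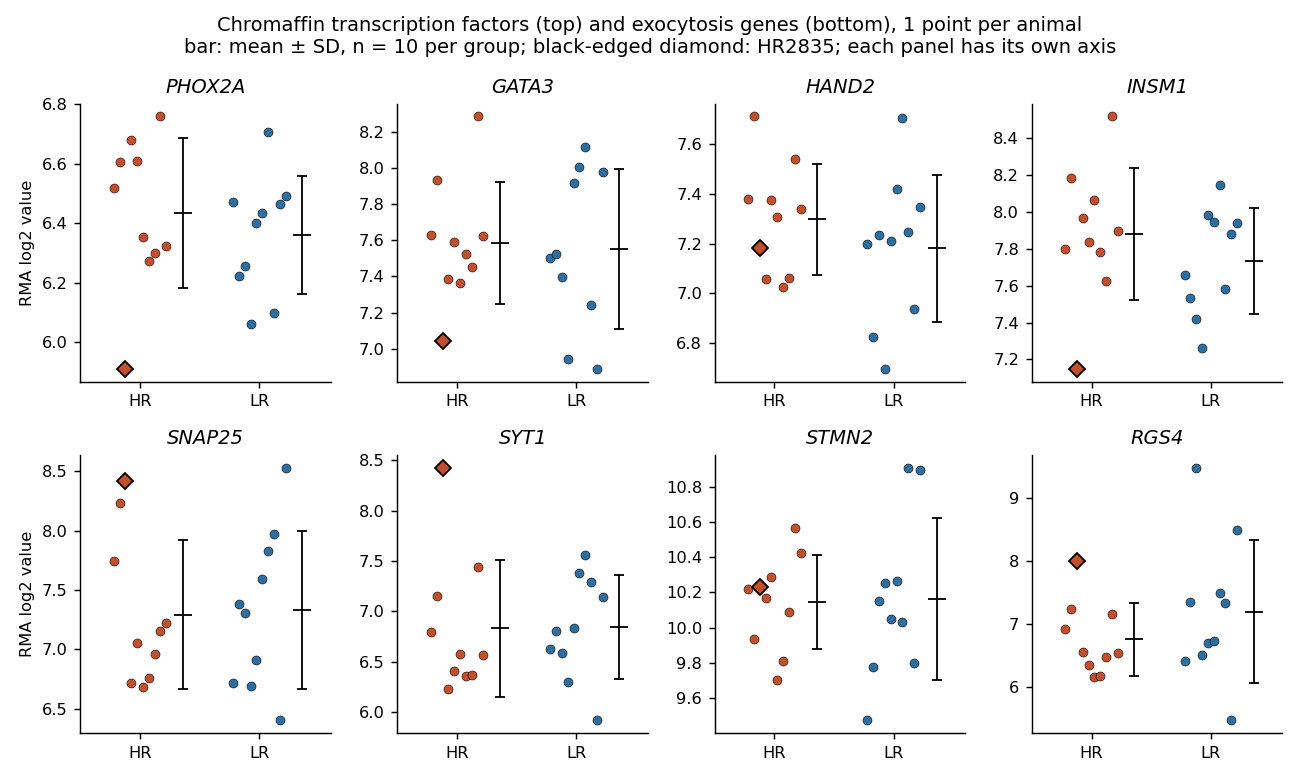
RMA log2 values of the 8 measured genes in each gland, HR left and LR right, with 1 point per animal and the mean ± SD of each group (n = 10 each). HR and LR overlapped for every gene, and HR2835 (black-edged diamond) was lowest for PHOX2A and INSM1 and highest for SYT1.

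The first comparison asked whether these genes differed between the coping groups. With limma, 0 of the 8 members passed an adjusted p of 0.05, as did 0% of the 47722 probe sets tested, and 0 members had an unadjusted p under 0.05. Over all probe sets 1741 (3.65%) had an unadjusted p under 0.05. Without HR2835, 0 of the 8 members and 0 probe sets passed, while 3765 probe sets (7.89%) had an unadjusted p under 0.05.

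All 4 transcription factors had a slightly higher mean in HR glands, by less than the spread between animals. INSM1 averaged 7.88 ± 0.36 in HR glands and 7.74 ± 0.29 in LR glands (SD, n = 10 each). The difference was 0.147 (SE 0.139, 95% interval -0.142 to 0.436, limma adjusted p = 0.99997), and it was 0.229 without HR2835 (adjusted p = 0.654). HAND2 averaged 7.30 ± 0.22 in HR glands and 7.18 ± 0.30 in LR glands, with a difference of 0.117 (SE 0.116, 95% interval -0.123 to 0.357). PHOX2A averaged 6.43 ± 0.25 in HR glands and 6.36 ± 0.20 in LR glands, with a difference of 0.073 (SE 0.103). The GATA3 means of 7.58 ± 0.34 in HR and 7.55 ± 0.44 in LR glands differed by 0.032 (SE 0.166), and by -0.10 with DBH as a covariate. Without HR2835 the differences were 0.131 for PHOX2A, 0.130 for HAND2 and 0.092 for GATA3.

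The other 4 members had a lower mean in HR glands, again within the spread, and for SYT1 and STMN2 the sign turned under quantile normalization (0.0082 and 0.011). RGS4 averaged 6.75 ± 0.58 in HR glands and 7.19 ± 1.14 in LR glands. Its difference of -0.44 was the largest in size of the 8 (SE 0.367, 95% interval -1.20 to 0.32, adjusted p = 0.99997). Without HR2835 it was -0.58 and without LR2579 it was -0.19, with 0 calls in both. SNAP25, SYT1 and STMN2 differed by -0.039, -0.013 and -0.018, with SE of 0.265, 0.247 and 0.159. The 95% intervals were -0.59 to 0.51 for SNAP25, -0.53 to 0.50 for SYT1 and -0.35 to 0.31 for STMN2, so that differences of these sizes could not be told from 0 at 10 glands per group. Without HR2835 the differences were -0.16 for SNAP25, -0.19 for SYT1 and -0.027 for STMN2.

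**Figure D2:**
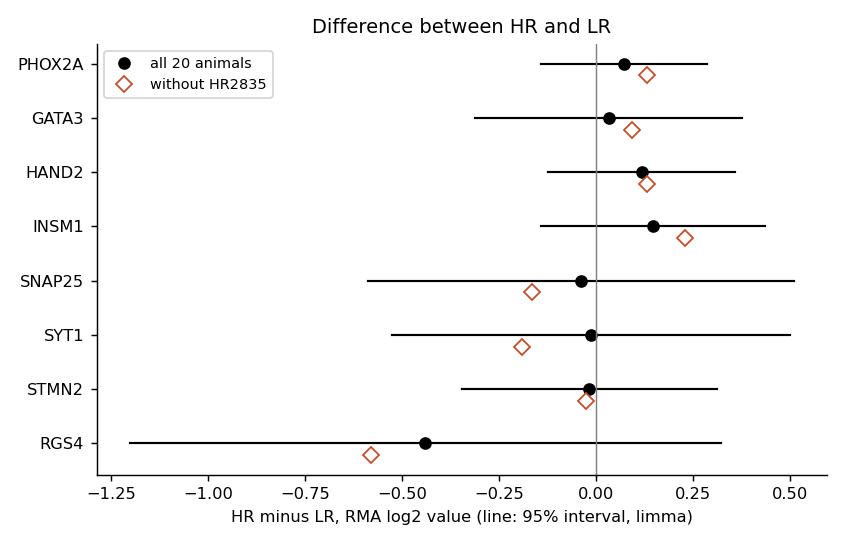
Difference in mean RMA log2 value between HR and LR glands (HR minus LR) for each gene, with the 95% interval from limma over all 20 animals. Every interval includes 0. Open diamonds give the difference without HR2835, which was 0.229 for INSM1 and -0.58 for RGS4.

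The second question was whether the members rose and fell together with transcripts of catecholamine enzymes from gland to gland. The comparison was planned with TH, which carries out the first step of catecholamine synthesis. No probe set carried the symbol TH in the annotation used. DBH, the enzyme that turns dopamine into noradrenaline, was put in its place once this was known. DBH (chr1:273204407-273225562) had a lowest, median and highest value of 9.12, 9.78 and 10.26 in HR glands, against 8.75, 9.76 and 10.42 in LR glands. Its groups overlapped, with a difference of 0.22 (SE 0.197, limma adjusted p = 0.99997). In a limma fit of every probe set on DBH, 0 of the 8 members passed with a positive slope, against a background of 0.00629% (3 of 47720 probe sets). The 3 probe sets were of CPLX2, TMEM63C and GALNTL1. Without HR2835, 0 of the 8 members passed, against 0.0231% of probe sets.

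The transcription factors had the higher correlations with DBH, each positive within both HR and LR. For GATA3, Pearson's r over 20 animals was 0.73 (permutation p = 2.5e-04) and Spearman's rho was 0.69 (permutation p = 9.2e-04), with an r of 0.63 within HR and 0.80 within LR. HAND2 had r = 0.70 (permutation p = 4.1e-04) and rho = 0.76 (p = 1.4e-04), with 0.44 within HR and 0.80 within LR. INSM1 had r = 0.68 (permutation p = 8.5e-04) and rho = 0.69 (p = 0.00109), with 0.70 within HR and 0.71 within LR. PHOX2A had the lowest r of these 4, 0.51 (permutation p = 0.0202), with rho = 0.56 (p = 0.0111), 0.51 within HR and 0.55 within LR.

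These permutation p-values are for single genes, and 8 relations were computed. After adjustment over all probe sets in the limma fit, p was 0.115 for GATA3, 0.27 for HAND2, 0.29 for INSM1 and 0.785 for PHOX2A, so that none passed. The median r with DBH over all probe sets was 0.034. Leaving out the 2 animals farthest from the DBH median, LR2579 and LR2790, gave r = 0.71 for GATA3, 0.77 for HAND2, 0.76 for INSM1 and 0.62 for PHOX2A. On the slope scale, a gland with DBH higher by 1 log2 unit had GATA3 higher by 0.59 (SE 0.127) and PHOX2A higher by 0.24 (SE 0.100).

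The other 4 members had lower correlations with DBH over the 20 animals. SYT1 had r = 0.38 (permutation p = 0.0964) and rho = 0.48 (p = 0.0345), and r was 0.24 without the 2 farthest animals. SNAP25 had r = 0.25 (p = 0.287) and rho = 0.33 (p = 0.151), and STMN2 had r = 0.25 (p = 0.288) and rho = 0.34 (p = 0.144). RGS4 had r = -0.082 (permutation p = 0.734) and rho = 0.086 (p = 0.719). Their limma adjusted p-values ran from 0.864 for SYT1 to 0.954 for RGS4.

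The value for SYT1 turned on 1 gland. Without HR2835, which had the highest SYT1 with a DBH value 6th from the lowest, r for SYT1 was 0.63 (permutation p = 0.0042, limma adjusted p = 0.356). Within HR glands r was -0.16 for SYT1 and -0.34 for SNAP25, while within LR glands it was 0.87 for SYT1 and 0.60 for SNAP25. HR2835 was among these HR glands, and r within HR was not computed without it. The difference of slope between HR and LR was tested in limma, and 0 of the 8 members passed, against 0% of 47720 probe sets, of which 2853 (5.98%) had an unadjusted p under 0.05. SNAP25 was the only member with an unadjusted p under 0.05 (p = 0.0437, adjusted p = 0.743), and SYT1 had p = 0.0671 (adjusted p = 0.743). Without HR2835 the unadjusted p from limma was 0.182 for SNAP25 and 0.487 for SYT1.

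**Figure D3:**
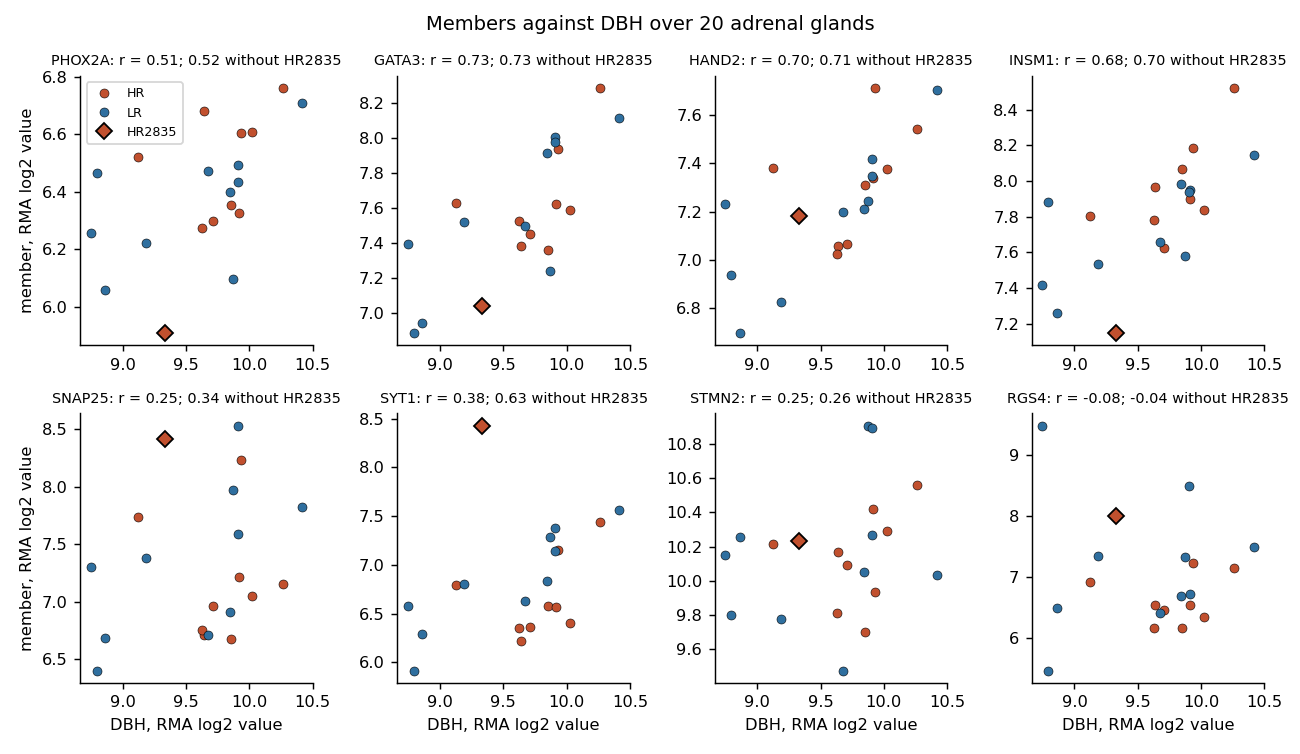
RMA log2 value of each gene against that of DBH in 20 adrenal glands, HR and LR in different colours and HR2835 as a black-edged diamond. GATA3, HAND2 and INSM1 followed DBH with r of 0.73, 0.70 and 0.68, and for SYT1 r was 0.38 with HR2835 and 0.63 without it.

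PNMT, which turns noradrenaline into adrenaline, and DDC, which makes dopamine, were set beside the members after the DBH values had been seen. With PNMT, 2 of the 8 members passed the limma fit with a positive slope, against 0.224% of probe sets. They were GATA3 (r = 0.81, adjusted p = 0.011) and HAND2 (r = 0.80, adjusted p = 0.0341). With DDC, 3 of the 8 passed, against 0.36% of probe sets. They were GATA3 (r = 0.91, adjusted p = 2.7e-04), INSM1 (r = 0.80, adjusted p = 0.0079) and HAND2 (r = 0.81, adjusted p = 0.0145).

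Apart from GATA3 with DDC, each of these calls was lost in at least 1 fit that left out 1 animal. With DDC, GATA3 passed in 20 of 20 such fits, INSM1 in 19 and HAND2 in 17. INSM1 missed without LR2594 (adjusted p = 0.0517), and HAND2 missed without HR2797, LR2594 or LR2639, with an adjusted p of up to 0.113. With PNMT, GATA3 passed in 19 of the 20 fits, missing without LR2594 (adjusted p = 0.0586). HAND2 passed with PNMT in 13 of 20, missing without HR2797, HR2900, HR2915, HR2965, LR2594, LR2639 or LR2790, with an adjusted p of up to 0.217. INSM1 passed with PNMT in 1, without LR2790 (adjusted p = 0.0401). SYT1 passed with DDC only without HR2835 (r = 0.73, adjusted p = 0.0328).

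Among themselves the 8 members formed 28 pairs, which are described here over the same 20 glands. The 6 pairs of transcription factors had r from 0.59 to 0.86, with a median of 0.71. The 6 pairs of the other 4 members had r from 0.35 to 0.79, with a median of 0.53. The 16 pairs across both sets had r from -0.23 to 0.52, with a median of 0.13. Without HR2835 the 16 cross pairs had r from -0.13 to 0.79 with a median of 0.26, and the medians within the sets were 0.71 and 0.52.

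PHOX2A and INSM1 had the highest r of the 28 pairs, 0.86 (permutation p = 1e-05, the smallest that these permutations can give), with rho = 0.79 (p = 3.0e-05). It was 0.84 within HR and 0.87 within LR, and 0.76 once the 2 animals with the most extreme PHOX2A were left out. Without HR2835, the gland with the lowest value of both genes, it was 0.81. SNAP25 and SYT1, whose proteins meet in the fusion complex, had r = 0.79 (permutation p = 4.0e-05), with 0.79 within HR and 0.81 within LR. SNAP25 and RGS4 had r = 0.68 and rho = 0.83, with 0.88 within HR and 0.64 within LR. Without HR2835 r was 0.75 for SNAP25 with SYT1 and 0.64 for SNAP25 with RGS4. GATA3 and SYT1 had r = 0.37 over 20 glands and 0.79 without HR2835. The permutation p-values of pairs are for single pairs and are not adjusted for the 28. PHOX2A with INSM1 was picked as the highest of them.

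**Figure D4:**
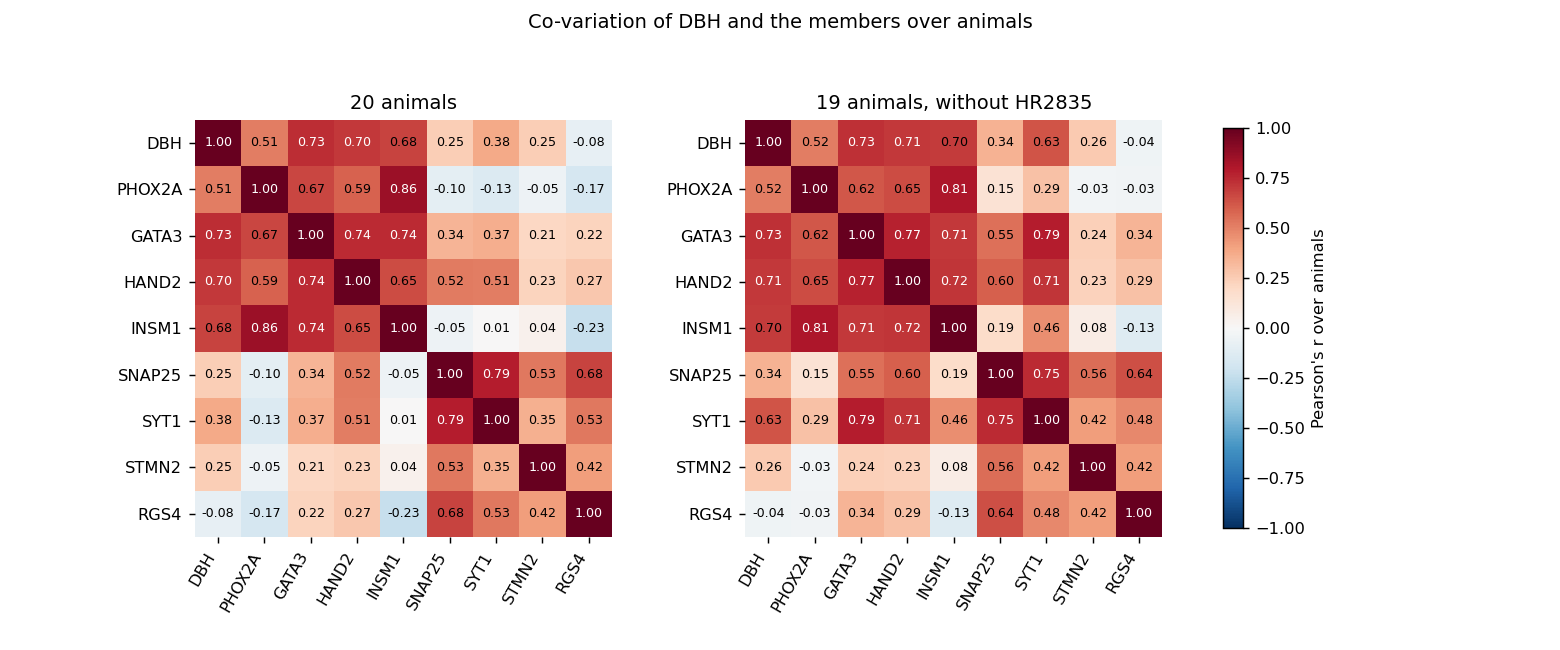
Pearson's r over animals between DBH and the 8 genes, for all 20 animals (left) and for the 19 animals without HR2835 (right). The transcription factors form a block with r from 0.59 to 0.86, and the r of SYT1 with GATA3 is 0.37 on the left and 0.79 on the right.

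A limma fit of every probe set on SYT1 was added after the pairs had been seen. Of the other 7 members 1 passed with a positive slope, SNAP25 (adjusted p = 0.0028), against 5.24% of all probe sets. Without HR2835, 2 passed, SNAP25 (adjusted p = 0.0199) and GATA3 (adjusted p = 0.0134), against 0.421% of probe sets. In all, 2500 probe sets passed with a positive slope on SYT1 over 20 animals and 201 over 19. RGS4 had an adjusted p of 0.0649, and it passed without LR2579 (r = 0.78, adjusted p = 0.00459) and without LR2635 (adjusted p = 0.0497).

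Several members had more than 1 probe set, and most of these moved alike. The second probe set of SYT1 had r = 0.88 with the first (permutation p = 1e-05), that of SNAP25 had 0.78 and that of INSM1 had 0.82. The further probe sets of GATA3 had r of 0.55, 0.91 and 0.74. For STMN2 they had 0.96, 0.85 and -0.062, and for RGS4 they had 0.57 and -0.054. The probe sets of STMN2 and RGS4 that did not follow the first had means of 2.40 and 1.70, the lowest among the 19 probe sets of the members. For HR against LR in limma the smallest unadjusted p among the 19 was 0.204, for the second probe set of RGS4. With DBH, the further probe sets of GATA3 had r of 0.28 (permutation p = 0.235), 0.78 and 0.54, against 0.73 for the first. The second probe set of INSM1 had r = 0.79 with DBH, that of SYT1 0.35 and that of SNAP25 -0.11. Those of STMN2 had 0.11, 0.10 and -0.40, and those of RGS4 had -0.039 and 0.40. The r of GATA3 and of some other members with DBH therefore depended on the probe set.

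Other genes of the same processes were looked at by list, and for HR against LR 0 genes of any list passed in limma. Of 15 further transcription factors of chromaffin cells, 0 passed with DBH, with a median r of 0.38. GATA2, a close relative of GATA3, had the highest r with DBH (0.67, adjusted p = 0.546), and SOX11, a factor of immature neurons, the lowest (-0.31). MYT1 had the smallest p for HR against LR, with a difference of -0.19 (p = 0.106). TBX20, PROX1 and RFX6 passed with SYT1 over 20 animals (r of 0.83, 0.73 and 0.84), against 5.24% of all probe sets. Without HR2835 TBX20 and RFX6 passed, against 0.421% of all probe sets.

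Of the 10 further SNAREs, 0 passed with DBH and the median r was 0.035. STX1A, the membrane partner of SNAP25, had the highest r with DBH (0.68, adjusted p = 0.352) and VAMP4, of the Golgi, the lowest (-0.39). STX4 had the smallest p for HR against LR, with a difference of -0.10 (p = 0.219). With SYT1, 2 SNAREs passed with a negative slope, VAMP3 (r = -0.62) and SNAP29 (r = -0.67), against a background of 4.87% of all probe sets, and without HR2835 0 did, against 0.0147%.

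On SYT1, 5.24% of all probe sets passed with a positive and 4.87% with a negative slope. Without HR2835 these shares were 0.421% and 0.0147%. Proteins that prepare or control the SNAREs gave 9 of 38 genes with a positive and 1 with a negative slope on SYT1, NAPA, and without HR2835 they gave 6 and 0. The genes with a positive slope included RAB3C, a small GTPase of secretory vesicles (r = 0.93, adjusted p = 8.2e-06), RAB27A, which docks vesicles (r = 0.84), CADPS, which primes dense core vesicles (r = 0.83), and UNC13C (r = 0.84). Without HR2835 the calls of UNC13C (adjusted p = 0.0585), CADPS2, ERC2 and PCLO were lost, while CPLX2 was gained (r = 0.81, adjusted p = 0.00653). With DBH 0 of 38 passed. CPLX2, a complexin that clamps the SNARE complex, had the highest r with DBH (0.73, adjusted p = 0.109), and a dimmer probe set of CPLX2 passed with DBH (adjusted p = 0.029). RAB27B had the lowest r with DBH (-0.52), and SYTL5 the smallest p for HR against LR (0.29 higher in HR glands, p = 0.0283, adjusted p = 0.99997).

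Of 14 further synaptotagmins, 3 passed with a positive slope on SYT1, against 5.24% of all probe sets. They were SYT4 (r = 0.76, at a mean level of 2.49), SYT11 (r = 0.73) and SYT13 (r = 0.60). Without HR2835 SYT11 alone passed (r = 0.83), against 0.421% of all probe sets. SYT17 had the highest r with DBH (0.78, adjusted p = 0.0848) and SYT2 the lowest (-0.13). SYT10, at a mean level of 3.36, was 0.80 higher in HR glands (p = 0.00322, adjusted p = 0.99997), the smallest p for HR against LR in all the lists. Of 18 vesicle membrane proteins 0 passed with DBH. With SYT1, SYNGR1, SCAMP2 and SCAMP3 passed with a negative slope, against 4.87% of all probe sets, and none of them without HR2835, against 0.0147%. Without that gland SV2A passed with a positive slope (r = 0.74, adjusted p = 0.0297), against 0.421% of all probe sets. SYN1, a synapsin that tethers vesicles, had the highest r with DBH there (0.67) and SLC17A9 the lowest (-0.25). SYPL2 had the smallest p for HR against LR, with a difference of -0.23 (p = 0.076).

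Of 17 further RGS proteins, 1 passed with a positive slope on SYT1, a share close to the 5.24% of all probe sets. This was RGS5 (r = 0.88 over 20 animals and 0.86 without HR2835), which is otherwise known as a pericyte gene. RGS5 also had the highest r with DBH among them (0.38), RGS21 the lowest (-0.34), and RGS8 the smallest p for HR against LR (0.24 higher in HR glands, p = 0.0374, adjusted p = 0.99997). STMN4 was the only further stathmin measured, with r = 0.23 with DBH.

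Among cell type markers, 5 of 11 chromaffin markers passed with a positive slope on SYT1, against 5.24% of all probe sets. They were SLC18A1, CHGA, CHGB, SCG2 and SCG3. Without HR2835 DDC joined them and 6 passed, against 0.421% of all probe sets. CHGB, a granin of the vesicle core, had r = 0.84 with SYT1. With DBH, 0 of 10 chromaffin markers passed over 20 animals, with a median r of 0.54, and 2 passed without HR2835, PNMT (r = 0.81, adjusted p = 0.0405) and DDC (r = 0.80, adjusted p = 0.0416). In the cortex list, 4 of 11 genes passed with a negative slope on SYT1, NR5A1, SCARB1, FDXR and INHA, and 0 did without HR2835, against 4.87% and 0.0147% of all probe sets. Of 13 neuron markers 0 passed with SYT1 or DBH, with a median r of 0.057 with DBH. In the other 8 marker lists, of Schwann, T cell, leukocyte, capsule, smooth muscle, endothelial, adipocyte and red blood cell genes, 0 passed with DBH. The r of these list means with DBH ran from 0.0072 for smooth muscle to 0.60 for Schwann and sustentacular cells. With SYT1 over 20 animals, the Schwann cell gene CDH19 passed with a positive slope (r = 0.77), against 5.24% of all probe sets. CD14 (leukocytes), DES (smooth muscle) and PLIN1 (adipocytes) passed with a negative slope, against 4.87%. Without HR2835 these 4 calls were lost. S100B, of Schwann and sustentacular cells, then passed with a positive slope (r = 0.78, adjusted p = 0.0113), against 0.421% of all probe sets. The part of the gland's makeup in the co-variation of the members was not tested.

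**Figure D5:**
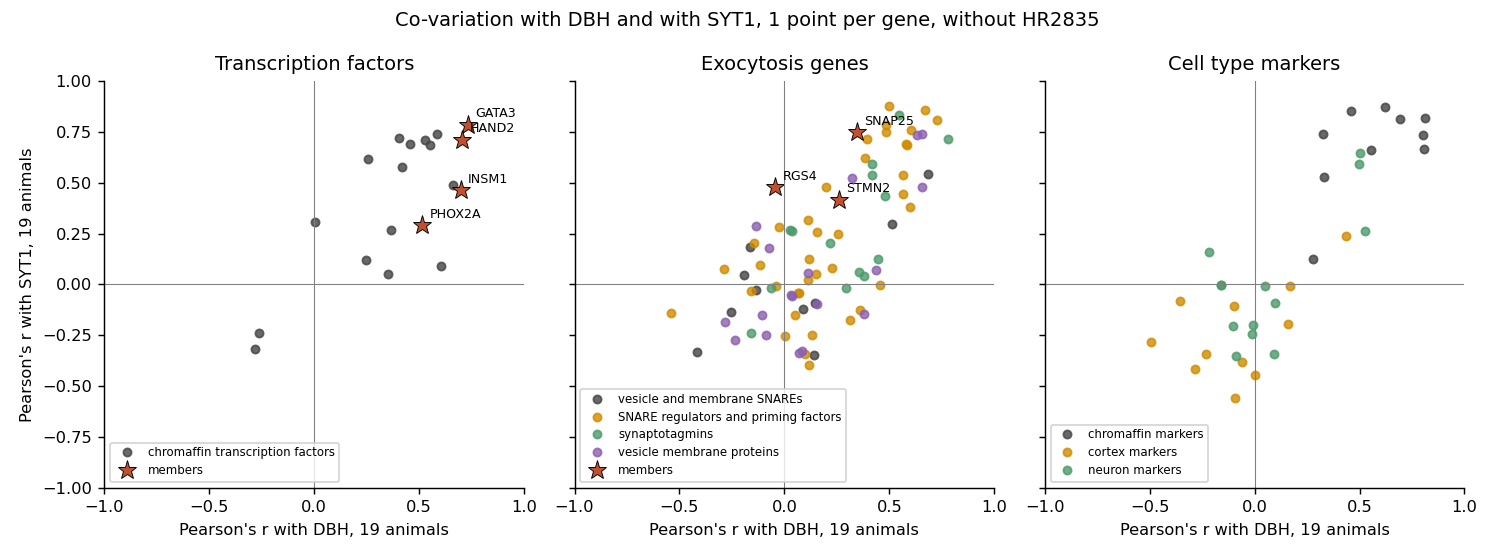
Pearson's r with DBH (horizontal axis) and with SYT1 (vertical axis) over the 19 animals without HR2835, 1 point per gene. Shown are transcription factors, exocytosis genes and cell type markers, with the members other than SYT1 as stars. GATA3 and HAND2 lie high on both axes, SNAP25 lies high for SYT1 (0.75) and lower for DBH (0.34), and the chromaffin markers lie mostly at the upper right.

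The 5 genes outside the members that were most like them were taken by Pearson's r with the mean of the 8 standardized members over 20 animals, as a description. They were SNAP91, a clathrin adaptor of synaptic vesicles, with r = 0.90, TNR, a tenascin of the nervous system, with 0.89, CLU, clusterin, with 0.89, ATCAY, caytaxin, with 0.88, and SEZ6L2 with 0.88. Without HR2835 their r ran from 0.89 for CLU to 0.94 for SNAP91. None of the 5 passed for HR against LR in limma, where their differences lay between 0.015 for SEZ6L2 and 0.127 for CLU.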

How the data were processed

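Total RNA of adrenal gland from 20 German Landrace pigs was hybridised to Affymetrix Porcine Snowball arrays, 1 per animal. By the methods, the scans were processed by the authors in GCOS 1.1.1 and normalized by RMA, and the deposited table holds log2 values of 47845 probe sets. These values were used without further normalization, and their precision is limited by the 10 arrays per group. The authors kept probes detected above background, a step that was not repeated here. After 123 control probe sets were left out, 47722 probe sets were tested, of which 26426 had 1 gene symbol in the annotation table and 21296 had none. Gene positions are those of RefSeq on Sscrofa11.1, matched by symbol.

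Groups followed the sample labels. The contrast of HR with LR was fitted without covariates by limma 3.58.1 in R 4.3.3, using moderated variances. P-values were adjusted by Benjamini-Hochberg across the 47722 probe sets, and a probe set passed at an adjusted p under 0.05. Co-variation was planned with TH and by permutation over all probe sets. Because no probe set carried the symbol TH, DBH stood in, which was decided after the files were opened. A limma fit of every probe set on DBH replaced the permutations, which was decided after exploratory correlations had been seen. PNMT, DDC and SYT1 were added after values had been seen. Permutation tests of r and rho were two-sided with 100000 permutations (Python 3.11.15, NumPy 2.4.6). The fits were tested on simulated data. The members and the 18 further gene lists were chosen with earlier results of these data known. Named are all members, the genes with the highest and lowest r with DBH and the smallest p for HR against LR in the lists of transcription factors, exocytosis genes and RGS proteins, and the 5 genes most like the mean of the members. Other genes are named because they passed a threshold, and were chosen after their values were seen. Alternatives were other normalizations, filters, variance models, covariates and probe sets, and leaving out each animal. Nothing in the labels says that animals share a litter, so that each was taken as 1 replicate.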

Additional observations from a re-analysis of the deposited data

How the results depend on the processing

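For HR against LR, 0 of 8 members and 0 probe sets passed under all 7 other settings and with each of the 20 animals left out. The sign turned for SYT1 (0.0082) and STMN2 (0.011) under quantile normalization, for SYT1 (0.0028) with probe sets averaged per gene, and for GATA3 (-0.10) with DBH as a covariate. With animals left out, differences ranged from -0.046 to 0.095 for GATA3, -0.16 to 0.094 for SNAP25, -0.19 to 0.067 for SYT1 and -0.094 to 0.065 for STMN2.

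With DBH, 0 members passed except for 1 with probe sets averaged per gene (INSM1), 1 with the second probe set of DBH (GATA3), 2 with PNMT and 3 with DDC in its place. Against 3 probe sets with DBH, 0 passed with ranks, within HR or within LR, 1 with median centring, 1 without the 2 farthest animals, 5 with quantile normalization, 13 with group as a covariate, 25 with gene means, 31 above the median level, 37 with the second probe set, 107 with PNMT and 172 with DDC, and 0 to 19 with an animal left out. The r of RGS4 turned to 0.086 with ranks, 0.088 without the 2 farthest animals, 0.042 within LR, 0.24 with PNMT and 0.17 with DDC, and ranged from -0.29 to 0.30 with animals left out. The r of SNAP25 turned to -0.015 with gene means and -0.34 within HR, and that of SYT1 to -0.16 within HR.

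With SYT1, the number of members passing was 0 with ranks and within LR, 2 within HR, 2 above the median level and 2 with the second probe set of SYT1, and 1 to 2 with an animal left out. Against 2500 and 2322 probe sets with a positive and a negative slope over 20 animals, 201 and 7 passed without HR2835. Positive slopes numbered 0 with ranks and within LR, 116 without the 2 farthest animals, 4417 within HR and 4557 with the second probe set. They numbered 2021 above the median level, where fewer probe sets were tested, and 201 to 4334 with an animal left out. The r of PHOX2A turned to 0.10 with ranks, 0.32 within LR and 0.17 without the 2 farthest animals (-0.25 to 0.29 with animals left out). That of INSM1 turned to -0.022 with median centring, -0.15 with the second probe set and -0.27 within HR (-0.14 to 0.46), and that of GATA3 to -0.038 within HR.

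The HR minus LR slope difference on DBH passed for 0 members throughout. It turned for STMN2 (0.0096) under quantile normalization, and with animals left out ranged from -0.014 to 0.57 for PHOX2A, -0.28 to 0.55 for GATA3, -0.25 to 0.20 for HAND2, -0.32 to 0.17 for STMN2 and -1.37 to 0.083 for RGS4. The cause of these changes was not tested. The planned settings with TH were not run, because no probe set carried its symbol. No paired analysis was possible because HR and LR animals share no numbers in the labels. Whether members other than STMN2 were above background was not judged, since the sources used here do not give the GC content of their probes.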
